A study of Mus musculus with 6 samples.

Results

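The genes described are 10 markers of oligodendrocytes, the myelinating cells of the central nervous system, measured by RNA sequencing in mouse auditory nerve: Mog, Mobp, Opalin, Ermn, Cnp, Enpp6, Olig1, Olig2, Gpr37 and Trf. They were chosen by symbol as genes of new and mature oligodendrocytes, and all 10 were found among the 24062 gene symbols of the deposited table. All 10 were also among the 16722 genes kept by a filter on low counts. The tissue was the auditory nerve isolated by microdissection from the cochleae of young adult mice. There were 3 Vcan knockout libraries and 3 wildtype libraries, each from a single mouse with both cochleae pooled. The strain is labelled C57BL/6 in both groups and C57BL/6J for the wildtype mice in the design text. The labels name the genotype only as Vcan knockout (Vcan encodes the matrix proteoglycan versican), so the altered exons and the cells in which they were altered are not known here. The study compared the nerve's transcripts between Vcan-deficient and wildtype mice.

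The auditory nerve is myelinated by different cells along its length. Schwann cells myelinate its peripheral part in the cochlea, and oligodendrocytes, accompanied by astrocytes, myelinate the part nearest the brainstem. The point at which the cell types change is the glial transition zone. Oligodendrocytes arise from precursor cells, pass through a newly formed stage and then make the proteins of central myelin. The labels do not say how much of the central part a dissected piece held. In such bulk samples fewer cells of a type and less RNA per cell cannot be told apart.

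Library totals ran from 74530860 to 92513887 counts. Wildtype replicate 3 stood apart from the other 5 libraries, with correlations of 0.9475 to 0.9566 (log2 CPM, across genes), and knockout replicate 1 resembled wildtype replicate 1 (0.9768) more than knockout replicates 2 and 3 (0.9611 and 0.9623). Vcan itself had 413, 249 and 248 counts in the 3 knockout libraries, against 697, 864 and 626 in the wildtype libraries. All knockout libraries lay below all wildtype libraries for Vcan. The log2 fold change was −1.20 (SE 0.32), which did not pass correction over all genes (edgeR quasi-likelihood F test, Benjamini-Hochberg adjusted p = 0.558).

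Oligodendrocyte transcripts were present in every library. Levels between genes were compared as CPM (counts scaled to library size) per kilobase of exonic sequence. On that scale Trf was the most abundant, at 729 ± 133 CPM per kilobase in knockout nerve and 664 ± 280.1 in wildtype nerve (SD, n = 3 each), followed by Cnp at 246 ± 39.9 and 235 ± 56.4. Both are made outside oligodendrocytes as well, Cnp in Schwann cells and Trf in several secretory tissues, the liver above all. The genes more confined to central myelin were lower. Mog was at 24.7 ± 9.62 CPM per kilobase in knockout and 41.0 ± 20.5 in wildtype nerve, and Mobp at 16.5 ± 2.19 and 30.5 ± 9.17 (SD, n = 3). Ermn was the seventh in knockout nerve, at 6.32 ± 1.50 CPM per kilobase, and the fifth in wildtype nerve, at 16.3 ± 9.47 (SD, n = 3). Its neighbours in the order were Olig1, at 7.85 ± 1.81 in knockout and 12.3 ± 6.25 in wildtype nerve, and Gpr37, at 6.58 ± 1.48 and 7.46 ± 1.20 (SD, n = 3). The library ranges of these 3 overlapped in both groups, as did those of Mog and Mobp. Enpp6 (1.57 ± 0.137 and 2.82 ± 0.199) and Olig2 (1.28 ± 0.295 and 1.62 ± 0.99) followed, with ranges that also overlapped in both groups. Opalin was the lowest, at 0.189 ± 0.109 and 0.191 ± 0.119 CPM per kilobase (SD, n = 3), with 21, 84 and 42 raw counts in the knockout libraries and 49, 81 and 17 in the wildtype libraries. These levels depend on the exonic length used, which joins the exons of all transcripts and for Mobp is 6849 bases against 3286 in its longest transcript.

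The 10 genes lie on 8 chromosomes (GRCm38), and Olig1 and Olig2 alone are close neighbours, 41.1 kb apart on chromosome 16. Promoter windows, from 250 bases before to 50 after a start site, were found for 8 of the 10 genes in a RefSeq table (GRCm38.p6), all but Olig1 and Trf. The start site was the outer end of the annotated gene for 6 of them. For Cnp it lay 30 bases inside the gene, and for Enpp6 it lay 47.7 kb inside, so that the Enpp6 window does not cover the outer start of that gene. The promoters were searched on both strands for short cores bound by factors of the oligodendrocyte lineage: CTGGCAC and CTGGTAC, forms of the MYRF core, ACAAAG, a SOX core, and the E-boxes CAGATG and CAGCTG, which OLIG and related factors can bind. Those of Mobp, Opalin, Cnp and Mog are printed because these 4 hold a MYRF or SOX core, and they are myelin genes whose levels are compared between libraries here. Capitals mark the matches in either orientation, and each sequence is read 5′ to 3′ on the gene's strand.
Mobp promoter (chr9:120149492-120149791, forward strand): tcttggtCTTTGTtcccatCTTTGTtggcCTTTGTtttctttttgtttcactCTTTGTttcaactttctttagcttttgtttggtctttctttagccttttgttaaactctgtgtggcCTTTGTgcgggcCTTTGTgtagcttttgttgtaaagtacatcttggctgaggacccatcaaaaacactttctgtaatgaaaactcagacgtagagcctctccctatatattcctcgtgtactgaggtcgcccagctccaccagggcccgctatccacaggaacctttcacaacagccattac
Opalin promoter (chr19:41077064-41077363, reverse strand): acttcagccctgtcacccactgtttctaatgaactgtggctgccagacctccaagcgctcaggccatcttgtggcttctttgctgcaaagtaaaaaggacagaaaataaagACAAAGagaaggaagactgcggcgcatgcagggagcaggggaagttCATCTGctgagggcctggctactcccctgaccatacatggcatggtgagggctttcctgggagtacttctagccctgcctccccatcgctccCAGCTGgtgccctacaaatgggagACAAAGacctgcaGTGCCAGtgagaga
Cnp promoter (chr11:100574689-100574988, forward strand): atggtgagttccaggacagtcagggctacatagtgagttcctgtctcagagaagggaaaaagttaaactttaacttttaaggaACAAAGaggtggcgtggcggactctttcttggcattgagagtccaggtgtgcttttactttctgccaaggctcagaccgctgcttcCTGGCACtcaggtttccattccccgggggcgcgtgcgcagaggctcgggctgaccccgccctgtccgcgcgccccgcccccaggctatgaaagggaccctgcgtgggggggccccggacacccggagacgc
Mog promoter (chr17:37023349-37023648, reverse strand): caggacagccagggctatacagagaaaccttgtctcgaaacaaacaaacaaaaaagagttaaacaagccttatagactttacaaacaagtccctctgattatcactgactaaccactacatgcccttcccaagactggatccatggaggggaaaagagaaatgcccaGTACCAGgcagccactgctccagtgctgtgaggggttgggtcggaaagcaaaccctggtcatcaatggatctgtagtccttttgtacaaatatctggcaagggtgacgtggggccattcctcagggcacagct
The Mobp promoter holds 6 copies of ACAAAG, all on the strand opposite to the gene, and of 32851 windows in the RefSeq table, where a gene can have more than 1, it is the 1 window with that many. ACAAAG was in 3 of the 8 promoters, against 18.7% of all windows, and CTGGCAC in 2 of 8 (Cnp and Opalin) against 5.01%. CTGGTAC was in 1 (Mog) against 2.24%, CAGATG in 2 (Gpr37 and Opalin) against 17.2% and CAGCTG in 1 (Opalin) against 16.3%. None of these motifs overlapped another in the 8 promoters. The windows of Ermn and Olig2, and the inner window of Enpp6, held no match.

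Before the groups were compared, the libraries of each group were set against each other. In the knockout group 7 of 10 genes had replicate 2 highest, replicate 3 in the middle and replicate 1 lowest, an order that 22.3% of all tested genes had. Mobp and Enpp6 had replicate 3 lowest there, and Trf had replicate 3 highest. In the wildtype group 8 of 10 genes had replicate 2 highest, replicate 1 in the middle and replicate 3 lowest (21.5% of all tested genes). The exceptions were Gpr37, with replicate 1 lowest, and Trf, with replicate 3 highest and replicate 1 lowest. Trf was thus the 1 gene of the 10 with replicate 3 highest in both groups.

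The size of this spread was given as the highest over the lowest CPM of a group's 3 libraries. Its median over the 10 genes was 1.56 in knockout nerve and 2.40 in wildtype nerve, beside medians of 1.33 and 1.41 over the 14407 genes with a mean of at least 1 CPM. Among wildtype mice, Olig2 differed 3.72-fold, a ratio that 4.51% of those genes reached, and Ermn 3.37-fold (5.55% of genes). In the same mice Mog and Olig1 differed 2.65- and 2.69-fold. Opalin differed 3.29-fold among knockout and 4.53-fold among wildtype libraries, at the low counts given above. Enpp6 was the 1 gene below the median of all genes in both groups, with ratios of 1.19 in knockout nerve and 1.15 in wildtype nerve, smaller than those of 72.1% and 86.8% of genes. The summed CPM of the 8 genes other than Cnp and Trf was 218, 299 and 231 in the knockout libraries, against 416, 591 and 291 in the wildtype libraries. Wildtype replicate 3 lay below knockout replicate 2 on this sum, so the groups overlapped.

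**Figure D1:**
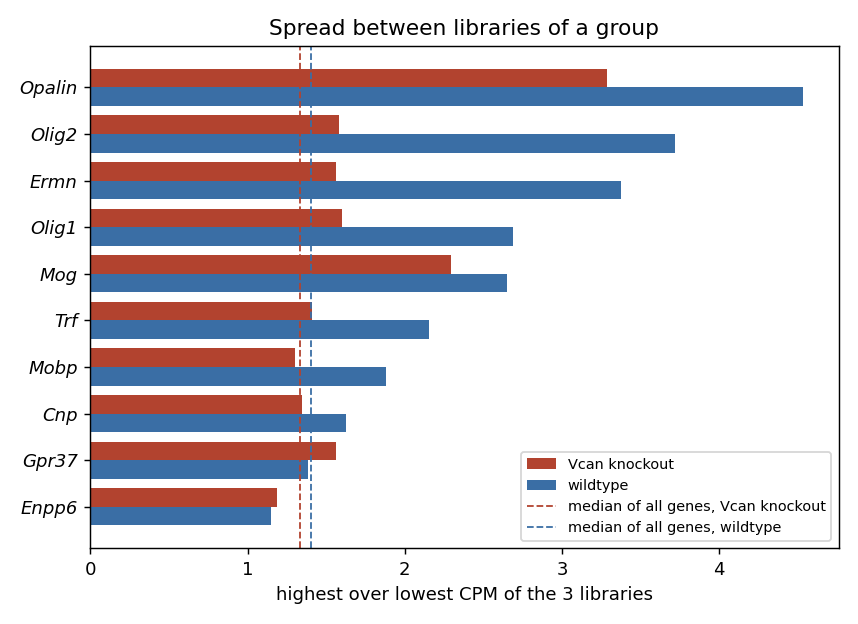
Ratio of the highest to the lowest CPM among the 3 libraries of a group for each oligodendrocyte gene, with dashed lines at the median of all genes with a mean of at least 1 CPM. Opalin, Olig2 and Ermn have the longest wildtype bars (4.53, 3.72 and 3.37), and the bars of Enpp6 end below both lines.

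Between the genotypes, 8 of the 10 genes had a negative log2 fold change (knockout over wildtype), as did 51.1% of all tested genes, with a median of −0.49 beside −0.0061 over all genes. None of the 10 passed correction over all genes in edgeR (0.138% of genes did) or in limma voom (0.132%), and 1, Enpp6, passed in DESeq2 as lower (0.742% of genes). At an unadjusted p under 0.05 in edgeR there were 3 lower genes, Enpp6, Mobp and Ermn, against 2.64% of all genes lower at that level. For 2 genes, Enpp6 and Mobp, all knockout libraries lay below all wildtype libraries, against 4.93% of genes, and for none did they all lie above (5.42% of genes). The median moved with single mice: it was −0.11 without wildtype replicate 2, −0.32 without knockout replicate 1 and −0.80 without wildtype replicate 3.

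**Figure D2:**
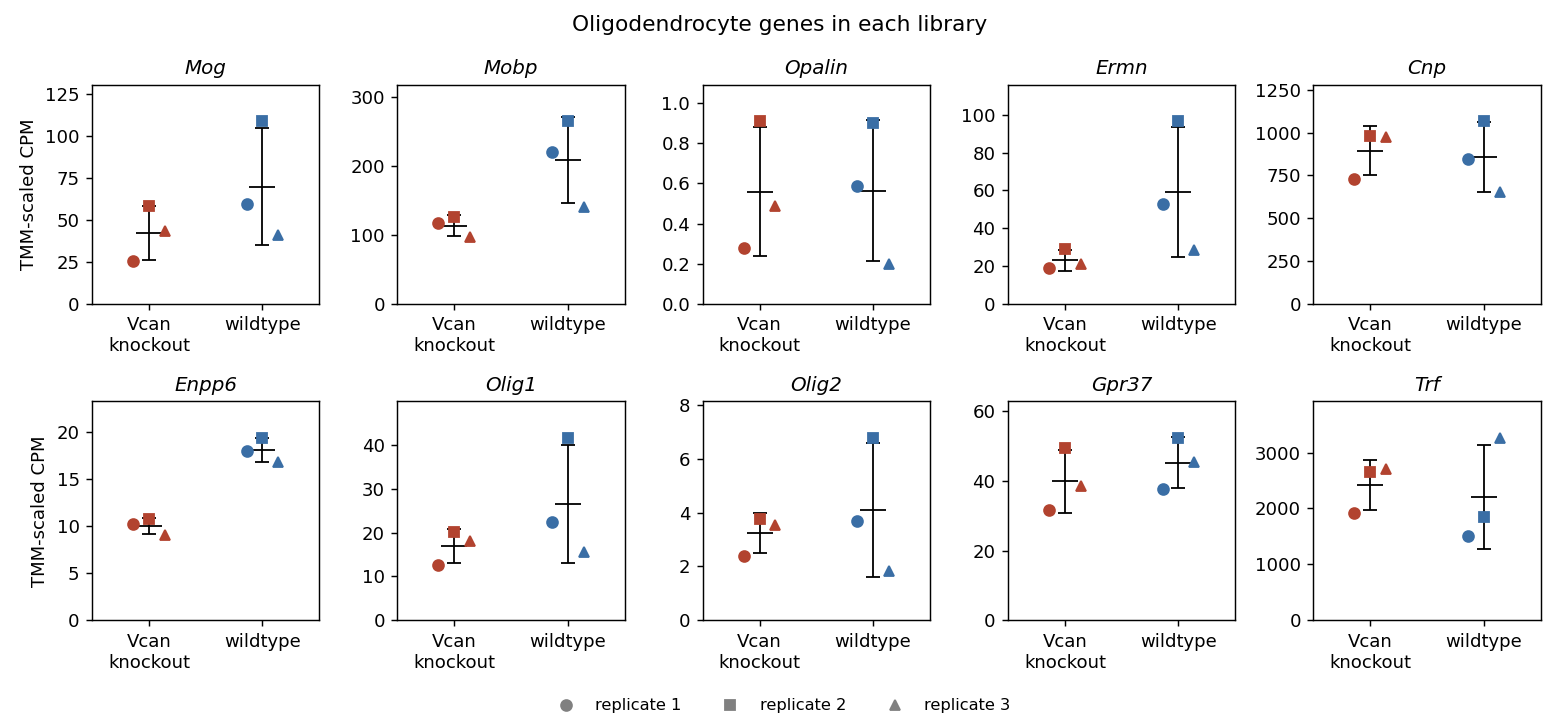
TMM-scaled CPM of each oligodendrocyte gene in the 3 Vcan knockout libraries (left in each panel) and the 3 wildtype libraries (right), with a marker shape for each replicate number and bars for the mean and SD. The groups are apart for Enpp6 and Mobp, and for Mog, Ermn, Olig1 and Olig2 wildtype replicate 2 stands above every other library.

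Enpp6 encodes a choline-specific glycerophosphodiesterase that is switched on as precursors become oligodendrocytes and marks newly formed cells (gene identifier 320981, chromosome 8, 46939197 to 47096762). Enpp6 was at 10.3, 10.8 and 9.07 CPM in the knockout libraries, against 18.0, 19.4 and 16.9 CPM in the wildtype libraries. The highest knockout value lay well below the lowest wildtype value, and neither group was spread out. The means were 10.05 ± 0.88 CPM in knockout and 18.1 ± 1.28 CPM in wildtype nerve (SD, n = 3), a log2 fold change of −0.85 (SE 0.15). It did not pass over all genes in edgeR (adjusted p = 0.227) and passed in DESeq2 (adjusted p = 5.39e-05). Enpp6 was also the 1 gene of the 10 under 0.05 in the authors' deposited table (adjusted p = 0.000193, lower), where 0.714% of genes were called lower. Its log2 fold change stayed between −0.91 and −0.79 when single mice were left out.

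Mobp encodes a small basic protein of compact central myelin (gene identifier 17433, chromosome 9, 120149742 to 120181488), whose promoter is shown above. Mobp was at 117, 126 and 96.9 CPM in the knockout libraries, against 221, 265 and 141 CPM in the wildtype libraries. The groups did not overlap, and wildtype replicate 3 lay closest to the knockout values. The log2 fold change was −0.88 (SE 0.25; edgeR adjusted p = 0.605), from means of 113 ± 15.0 CPM in knockout and 209 ± 62.8 CPM in wildtype nerve (SD, n = 3). It did not pass in DESeq2 (adjusted p = 0.0759).

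Ermn encodes ermin, an actin-binding protein of the oligodendrocyte cytoskeleton (gene identifier 77767, chromosome 2, 58045115 to 58052864), and had the largest fold change of the 10. Ermn was at 18.7, 29.1 and 21.1 CPM in the knockout libraries, against 52.9, 96.6 and 28.6 CPM in the wildtype libraries. Knockout replicate 2 lay just above wildtype replicate 3, so the groups overlapped by a single pair. The log2 fold change was −1.37 (SE 0.43; edgeR adjusted p = 0.701; DESeq2 adjusted p = 0.0782) and became −0.83 without wildtype replicate 2. Ermn shares 237 exonic bases with Galnt5 on the opposite strand, and whether counting used strand is not given. Galnt5 was low, at 0.643 ± 0.711 CPM in knockout and 0.926 ± 0.565 CPM in wildtype nerve (SD, n = 3).

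Mog encodes a glycoprotein on the outer surface of central myelin (gene identifier 17441, chromosome 17, 37010740 to 37023398). Mog was at 25.3, 58.1 and 43.1 CPM in the knockout libraries, against 59.5, 109 and 41.1 CPM in the wildtype libraries. Its knockout range covered the lowest wildtype value and nearly reached the middle one, and wildtype replicate 2 alone stood well above. The log2 fold change was −0.73 (SE 0.43; edgeR adjusted p = 0.9996) and was −0.25 without wildtype replicate 2 and −0.46 without knockout replicate 1.

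Opalin, a transmembrane glycoprotein of central myelin (gene identifier 226115, chromosome 19, 41061959 to 41077113), was at 0.277, 0.91 and 0.487 CPM in the knockout libraries, against 0.588, 0.901 and 0.199 CPM in the wildtype libraries. The highest value of each group was nearly the same, and the lowest was in wildtype replicate 3. The log2 fold change was −0.0097 with an SE of 0.67. Its sign turned in several alternatives.

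Cnp encodes a cyclic nucleotide phosphodiesterase of noncompact myelin that Schwann cells also make (gene identifier 12799, chromosome 11, 100574909 to 100591875). Cnp was at 728, 982 and 978 CPM in the knockout libraries, against 847, 1067 and 656 CPM in the wildtype libraries. All knockout values lay within the wildtype range, with a log2 fold change of 0.065 (SE 0.23; edgeR adjusted p = 0.9996). It turned to −0.010, −0.0099 and −0.10 without knockout replicate 2, knockout replicate 3 and wildtype replicate 3. Cnp shares 154 exonic bases with Dnajc7 on the opposite strand, which was at 182 ± 21.7 CPM in knockout and 170.1 ± 14.7 CPM in wildtype nerve (SD, n = 3).

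The transcription factors of the lineage did not separate the groups. Olig1 and Olig2 encode basic helix-loop-helix factors, of which Olig2 specifies the lineage and Olig1 acts in maturation and repair. Olig1 (gene identifier 50914, chromosome 16, 91269769 to 91271939) was at 12.6, 20.2 and 18.1 CPM in the knockout libraries, against 22.5, 41.6 and 15.5 CPM in the wildtype libraries. Olig2 (gene identifier 50913, chromosome 16, 91225550 to 91228677) was at 2.39, 3.78 and 3.54 CPM in the knockout libraries, against 3.71, 6.79 and 1.82 CPM in the wildtype libraries. The knockout values of Olig2 lay within the wildtype range, those of Olig1 overlapped it, and wildtype replicate 2 was the highest library for both. The log2 fold changes were −0.64 (SE 0.38) for Olig1 and −0.34 (SE 0.48) for Olig2, with edgeR adjusted p = 0.9996 for each. Without wildtype replicate 2 they were −0.16 and 0.23, the sign of Olig2 being turned. Olig1 shares 157 exonic bases with Gm15966, a gene on the opposite strand.

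Gpr37 encodes a G protein-coupled receptor that restrains oligodendrocyte differentiation in mice (gene identifier 14763, chromosome 6, 25668523 to 25689980). Gpr37 was at 31.7, 49.5 and 38.5 CPM in the knockout libraries, against 37.8, 52.4 and 45.6 CPM in the wildtype libraries, with a log2 fold change of −0.18 (SE 0.21; edgeR adjusted p = 0.9996). The ranges overlapped for most of their length. It was −0.039 without knockout replicate 1 and −0.37 without knockout replicate 2.

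Trf encodes transferrin, the iron carrier, which oligodendrocytes make in the brain (gene identifier 22041, chromosome 9, 103208876 to 103230286). Trf was at 1910.3, 2649 and 2699.6 CPM in the knockout libraries, against 1514, 1839.9 and 3262 CPM in the wildtype libraries. All knockout values lay within the wildtype range, whose top was wildtype replicate 3, the lowest wildtype library for 8 of the other 9 genes. The log2 fold change was 0.13 (SE 0.33; edgeR adjusted p = 0.9996), and it was −0.076 without wildtype replicate 1 and 0.52 without wildtype replicate 3. In wildtype replicate 3 the median log2 CPM was 0.71 above the wildtype mean for other cochlear cell markers and 0.64 for choroid plexus markers. In knockout replicates 1, 2 and 3 it was 0.040, 0.076 and −0.54 for the cochlear and −0.11, 0.26 and −0.20 for the choroid plexus markers. The summed CPM of the cochlear markers ran otherwise, at 6962, 13899 and 14405 in the knockout libraries, against 9292, 10743 and 16426 in the wildtype libraries. Most of that sum was Coch, at 6699, 13659 and 14203 CPM against 9083, 10536 and 15817 CPM. Both had replicate 3 highest and replicate 1 lowest in each group, as Trf had. Of the knockout libraries, Trf was highest in replicate 3. The part of these cells in the Trf value was not tested. GENCODE vM21 lists a second gene, Gm20425, that shares 2108 exonic bases with Trf on the same strand, and it has no row in the table.

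**Figure D3:**
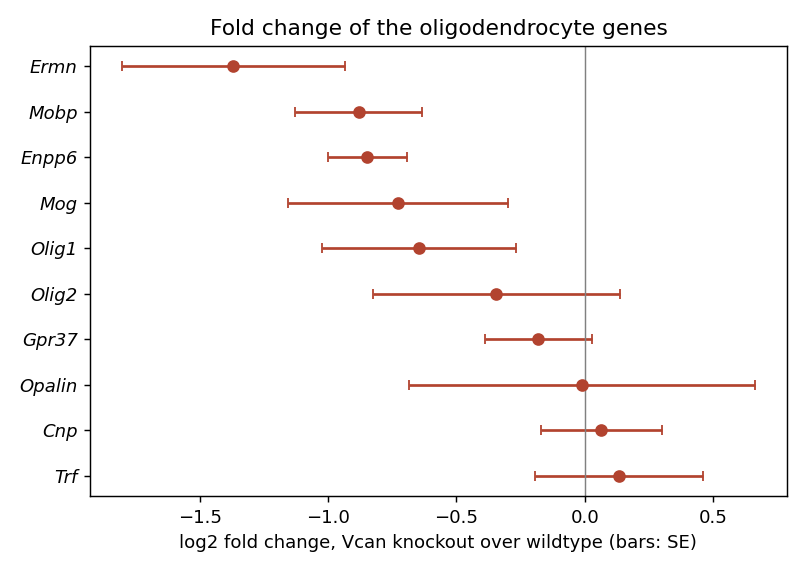
Log2 fold change of each oligodendrocyte gene, Vcan knockout over wildtype, from edgeR, with bars for the SE. Ermn (−1.37), Mobp (−0.88) and Enpp6 (−0.85) lie farthest below 0, Enpp6 with the shortest bar (0.15), and Cnp and Trf lie near 0.

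Since most of these genes differed between libraries of a group in the same order, each gene was also set against Mog in the same library, as a ratio of CPM that is compared between libraries and not between genes. The Olig1 to Mog ratio was 0.497, 0.347 and 0.421 in the knockout libraries, against 0.378, 0.382 and 0.377 in the wildtype libraries, where it hardly varied. The Ermn to Mog ratio was 0.737, 0.501 and 0.49 in the knockout libraries, against 0.889, 0.888 and 0.697 in the wildtype libraries, with knockout replicate 1 above wildtype replicate 3. The Enpp6 to Mog ratio was 0.406, 0.186 and 0.211 in the knockout libraries and 0.303, 0.178 and 0.41 in the wildtype libraries, and the groups overlapped. The Mobp to Mog ratio overlapped as well, at 4.61, 2.17 and 2.25 in the knockout and 3.71, 2.43 and 3.43 in the wildtype libraries. Gpr37 and Trf overlapped too. Relative to Mog, 3 genes were higher in all knockout than in all wildtype libraries. These were Cnp, at 28.7, 16.9 and 22.7 in knockout against 14.2, 9.80 and 16.0 in wildtype libraries, Olig2, at 0.0942, 0.0651 and 0.0821 in knockout against 0.0623, 0.0624 and 0.0444 in wildtype libraries, and Opalin, at 0.0109, 0.0157 and 0.0113 in knockout against 0.00988, 0.00828 and 0.00484 in wildtype libraries. Of all tested genes other than Mog, 12.6% were higher relative to it in this way. The ratios share the Mog value of a library, were not tested and say nothing of the genes' own levels.

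**Figure D4:**
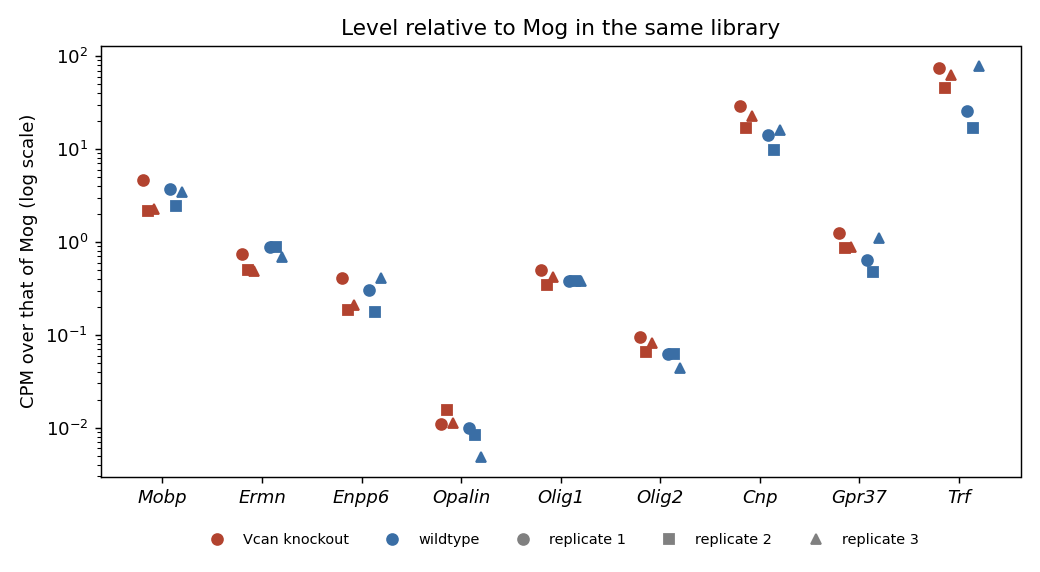
CPM of 9 genes divided by that of Mog in the same library, on a log axis, Vcan knockout left and wildtype right for each gene, with a marker shape for each replicate number. The ratios of Cnp, Olig2 and Opalin are higher in every knockout library, and the wildtype points of Olig1 nearly coincide (0.378, 0.382 and 0.377).

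Most other genes of the lineage had negative fold changes too. Of 16 further genes enriched in oligodendrocytes, 15 had log2 fold changes below 0 (51.1% of all tested genes), with a median of −0.60. In 13 the wildtype order was replicates 2, 1 and 3 from high to low (21.5% of genes). None passed over all genes in edgeR, and 4 were lower at an unadjusted p under 0.05 (2.64% of genes). In the authors' deposited table, where 0.714% of genes were called lower, 1 was under 0.05 after adjustment. For 3 (Tspan2, Anln and Ppp1r14a) all knockout libraries lay below all wildtype libraries (4.93% of genes). The most abundant of this list by counts were Mal, Cldn11 and Bcas1. Mal, a proteolipid of myelin membranes, was at 522 ± 78.0 CPM in knockout and 575 ± 93.7 CPM in wildtype nerve. Cldn11, a tight junction protein of central myelin, was at 239.9 ± 105 and 331 ± 103 CPM, and Bcas1 at 191 ± 13.1 and 184 ± 57.9 CPM (knockout and wildtype, SD, n = 3). By library, Cldn11 was at 138, 347 and 236 CPM in knockout, against 213, 379 and 402 CPM in wildtype nerve. It was thus highest in wildtype replicate 3, where the median log2 CPM of this list was −0.59 from the wildtype mean. Mal and Bcas1 had their lowest wildtype values in that library. Which cells of the piece made Cldn11, Mal and Bcas1 was not tested. Tspan2, a tetraspanin of oligodendrocytes picked out after its values were seen, resembled Enpp6. It was at 14.6, 17.7 and 17.5 CPM in the knockout libraries, against 32.7, 46.8 and 27.6 CPM in the wildtype libraries (a log2 fold change of −1.10 ± 0.22, SE; adjusted p in edgeR 0.275), and was under 0.05 in the authors' deposited table (adjusted p = 0.00236).

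Myelin genes that Schwann cells share were mixed: of 8, 3 had positive and 5 negative fold changes, with a median of −0.062. Mbp, which encodes a basic protein of compact myelin, was at 3783 ± 655 CPM in knockout nerve, against 4539.9 ± 1629.9 CPM in wildtype nerve (SD, n = 3). Cd9, a tetraspanin of myelinating glia, was at 546 ± 185 CPM in knockout and 512 ± 84.5 CPM in wildtype nerve (SD, n = 3). Of 10 regulators of the lineage, 7 had negative fold changes (median −0.41), as did 51.1% of all tested genes. None of the 10 passed in edgeR or in the authors' deposited table, and 1, Myrf, was lower at an unadjusted p under 0.05 (2.64% of genes). Sox10, which Schwann cells also express, was at 207 ± 46.9 CPM in knockout and 198 ± 32.7 CPM in wildtype nerve, and Sox8, a related factor, at 37.8 ± 9.90 and 46.1 ± 13.0 CPM (SD, n = 3). Myrf, which switches on central myelin genes, was at 24.1, 19.9 and 17.4 CPM in the knockout libraries, against 40.3, 46.5 and 20.9 CPM in the wildtype libraries (log2 fold change −0.81 with an SE of 0.31; adjusted p = 0.875 in edgeR). The lowest wildtype value, in replicate 3, lay inside the knockout range.

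Of 10 genes of oligodendrocyte precursors, 9 had negative fold changes, as did 51.1% of all tested genes, with a median log2 value of −0.34. None passed in edgeR or in the authors' deposited table, and 2, Gpr17 and Ptprz1, were lower at an unadjusted p under 0.05 (2.64% of genes). Ptprz1, a receptor tyrosine phosphatase, was at 28.9, 21.1 and 21.6 CPM in the knockout libraries, against 40.05, 39.6 and 32.2 CPM in the wildtype libraries, with no overlap (log2 fold change −0.64, SE 0.18; edgeR adjusted p = 0.586). Gpr17, a receptor of committed precursors named here after its values were seen, also did not overlap, at 6.35, 6.30 and 4.83 CPM in the knockout libraries against 9.14, 11.6 and 6.55 CPM in the wildtype libraries. For these 2 of the 10, all knockout libraries lay below all wildtype libraries, against 4.93% of all tested genes. Pdgfra, the growth factor receptor of precursors that fibroblasts also express, was at 123 ± 33.2 CPM in knockout and 132 ± 21.3 CPM in wildtype nerve, and Lhfpl3 at 226 ± 73.4 and 240.2 ± 51.7 CPM (SD, n = 3).

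Markers of the other cells of the piece were placed beside the 10 genes, library by library, as the median difference in log2 CPM from the wildtype mean. For the 10 genes it was −0.76, −0.035 and −0.32 in knockout replicates 1, 2 and 3, against 0.0011, 0.57 and −0.58 in wildtype replicates 1, 2 and 3. For 14 astrocyte markers, the other central glia, it was −0.48, −0.34 and −0.91 in the knockout and 0.054, 0.32 and −0.54 in the wildtype libraries. All 14 had negative fold changes (median −0.66), as did 51.1% of all tested genes, and none passed in edgeR. Of the 14, 5 were lower at an unadjusted p under 0.05 (2.64% of genes). For 4, all knockout libraries lay below all wildtype libraries (4.93% of genes). In the authors' deposited table, where 0.714% of genes were called lower, 2 were under 0.05 after adjustment. These were Aqp4 (adjusted p = 0.0037) and Cldn10 (adjusted p = 0.0169), named after their values were seen. Their log2 fold changes were −1.49 (SE 0.35) and −1.08 (SE 0.27), beside −0.85 for Enpp6 and −1.37 for Ermn. Gfap encodes the intermediate filament of astrocytes and was at 223 ± 69.5 CPM in knockout and 371 ± 138 CPM in wildtype nerve (SD, n = 3). The calcium-binding protein gene S100b and Aldoc, a glycolytic enzyme gene, were at 1348 ± 609 and 226 ± 23.3 CPM in knockout nerve, against 2023 ± 1579 and 247 ± 87.5 CPM in wildtype nerve (SD, n = 3). S100b, which other cells of the cochlea also express, was highest in wildtype replicate 3 (3837 CPM). The summed CPM of the astrocyte markers ran from 1806 to 3047 in the knockout and from 2438 to 4922 in the wildtype libraries, and none of the markers was at 0.

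By these medians wildtype replicate 2 was the highest and wildtype replicate 3 the lowest wildtype library for both kinds of central glia. The astrocyte list was split, however. Of its 14 markers, 7 had the wildtype order of replicates 2, 1 and 3 from high to low (21.5% of all tested genes). Its summed CPM was highest in wildtype replicate 3 (4922), where S100b alone was at 3837 CPM. In wildtype replicate 3 the lists of peripheral cells were low as well, at −0.52 for 11 markers of myelinating Schwann cells and −0.61 for 13 markers of spiral ganglion neurons. In the knockout libraries those lists were not low, at 0.18, 0.16 and 0.30 for Schwann cells and 0.068, 0.14 and 0.14 for neurons. In wildtype replicates 1 and 2 they were at 0.26 and 0.25 for Schwann cells and at 0.33 and 0.23 for neurons. Pmp22, a membrane protein gene of peripheral myelin, was at 1546 ± 88.5 CPM in knockout and 1691 ± 167 CPM in wildtype nerve (SD, n = 3). Snap25 of the neurons was at 3224 ± 356 CPM in knockout and 2683 ± 1004 CPM in wildtype nerve (SD, n = 3). The summed CPM of the Schwann cell markers ran from 5340.1 to 7295 in the knockout and from 4745 to 7544 in the wildtype libraries. The part that the share of central tissue in each piece had in the oligodendrocyte values was not tested.

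**Figure D5:**
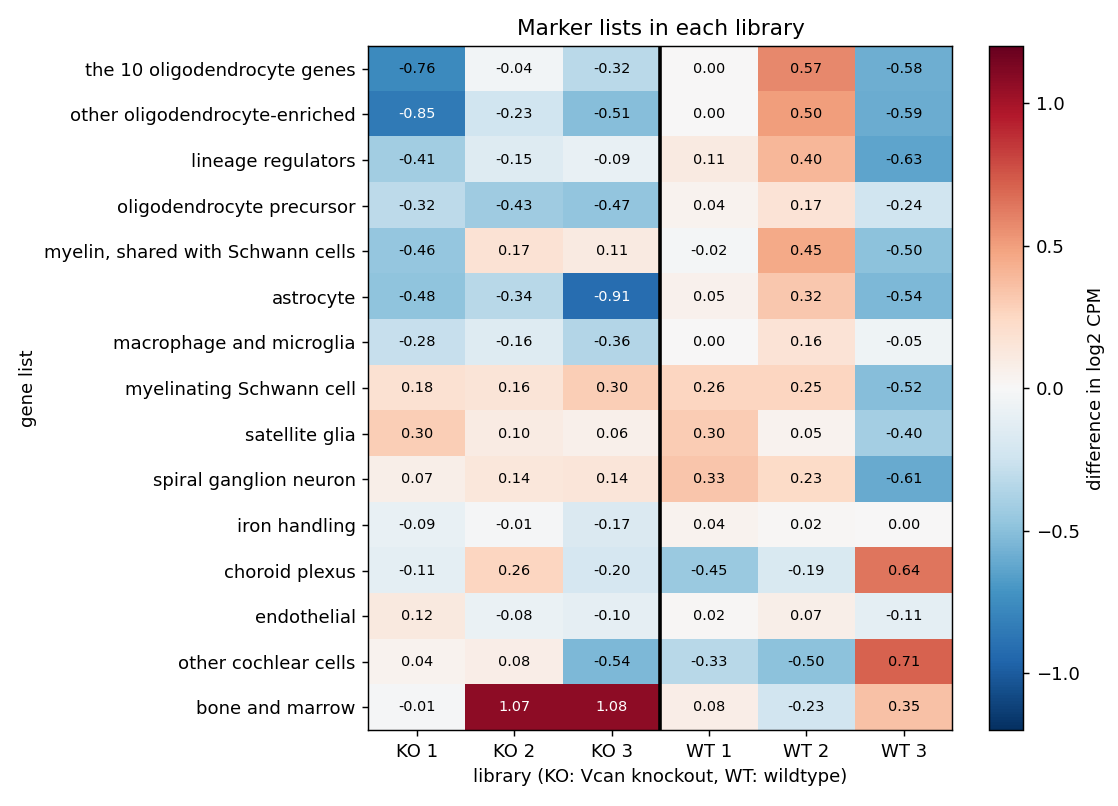
Median difference in log2 CPM from the wildtype mean for 15 gene lists (rows) in each library (columns), knockout left of the black line and wildtype right of it. The rows of the 10 oligodendrocyte genes and of the astrocyte markers are high in wildtype replicate 2 (0.57 and 0.32) and low in wildtype replicate 3 (−0.58 and −0.54), while the Schwann cell and neuron rows are low in wildtype replicate 3 only among the 6 libraries.

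The genes whose pattern over the 6 libraries was most like that of the 10 were found by Pearson correlation with the mean of their scaled log2 CPM, over 14398 other genes with a mean of at least 1 CPM. In order of likeness they were Zfp467, Slain1, Cpox, Klk6, Evi2a, Tmeff1, Hspa1b, Kctd3, Nkain1 and Casp12, with correlations of 0.981 to 0.998. Of these, Klk6, a serine protease of oligodendrocytes, was on the list of other oligodendrocyte-enriched genes. Klk6 was at 14.9, 35.1 and 28.7 CPM in the knockout libraries, against 37.7, 75.3 and 24.4 CPM in the wildtype libraries. Cpox, an enzyme of haem synthesis, was at 21.5, 33.8 and 27.9 CPM in the knockout libraries, against 35.0, 49.6 and 25.9 CPM in the wildtype libraries, and Slain1, a microtubule-associated protein, at 13.5, 25.1 and 17.8 CPM in knockout against 22.7, 38.4 and 19.0 CPM in wildtype libraries. The correlations share libraries and are given as a description.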

How the data were processed

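RNA was sequenced from auditory nerves of 3 Vcan knockout and 3 wildtype mice, grouped by the titles in the labels. Per the labels' protocols, both cochleae of a mouse were pooled and TruSeq libraries were made from column-purified total RNA. Per the submitters' processing notes, mm10, HTSeq and DESeq2 were used, with no versions given. The aligner, read length, use of strand and handling of reads that match several genes were not stated in the sources used here.

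The deposited table has 24067 rows of raw counts per gene made by the authors, whole numbers without normalisation. Beside them stand results of the authors' DESeq2 comparison. Per the file headers these are an average normalised signal, a log2 fold change and its SE, a test score, and raw and adjusted p-values. These are quoted only where the deposited table is named. The authors' log2 fold changes were not set beside those computed here. Each of 5 symbols appeared on 2 rows with equal counts and was used once, leaving 24062.

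Differences were tested in R 4.3.3 with edgeR 4.0.16: filterByExpr kept 16722 genes, TMM factors were 0.964 to 1.02, and robust 2-sided quasi-likelihood tests were adjusted by Benjamini-Hochberg over all genes at a threshold of 0.05. An SE is the log2 fold change over the root of F, without its sign. All CPM are TMM-scaled. DESeq2 1.42.0, limma 3.58.1 (voom), other scalings and filters, the replicate number as a block and leaving out each library were alternatives. No pair of libraries agreed within sampling noise (lowest chi-square per degree of freedom 39.9), so all were counted.

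Exonic lengths and overlaps came from GENCODE vM21 and coordinates and promoters from RefSeq GRCm38.p6, the assembly behind mm10. The members and all gene lists were chosen with earlier results of these data known, so no count over a list is independent support. All 10 members are named. From each other list, members past the threshold were to be named (there were none), and otherwise up to 3 of the highest mean CPM, not all of which are described, and any defining marker at 0 (Hbb-b1); genes named outside this rule are marked as chosen after their values were seen, and Klk6, Cpox and Slain1 were among the 10 most alike genes. Anln and Ppp1r14a complete a count, and Galnt5, Dnajc7 and Gm20425 were named for exons that overlap those of members. All genes on the lists were found in the table.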

Additional observations from a re-analysis of the deposited data

How the results depend on the processing

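Over 15 alternatives the direction of the fold change was kept for Mog, Mobp, Enpp6, Ermn, Olig1 and Gpr37. The number of genes called over all genes, 23 in edgeR, was 238 in DESeq2, 3 with the replicate block, 1 without both libraries numbered 1 (added after seeing the data) and 3 to 14 when single libraries were left out. The number of the 10 genes called was 1 in DESeq2 and 0 in the other 14 alternatives. The sign of Opalin turned with limma voom (0.094), with the replicate block (0.060) and without both libraries numbered 1 (0.34), and the cause was not tested. When single libraries were left out, the log2 fold change ran from −0.56 to 0.51 for Opalin, from −0.10 to 0.25 for Cnp, from −0.70 to 0.23 for Olig2 and from −0.076 to 0.52 for Trf, each crossing 0, with Trf at −0.076 without wildtype replicate 1. It ran from −0.91 to −0.79 for Enpp6 and −1.11 to −0.67 for Mobp, and the median over the 10 genes from −0.80 to −0.11. Whether the replicate numbers pair the samples was not settled. The deviations of same-numbered libraries from their group means correlated at 0.43, 0.22 and −0.15 across genes. Knockout replicate 3 correlated best with wildtype replicate 2 (0.37). Deviations within a group of 3 libraries depend on each other, so such correlations cannot exclude a pairing. The replicate numbers are those in the sample titles. The sample descriptions number the knockout libraries differently, so that knockout replicate 2 would share its number with wildtype replicate 3 (0.21), and no block was fitted on those numbers. With 3 mice per group and the wildtype spread given for Mog, Ermn and Olig2, the differences seen for these genes could not be told from the spread between mice. The groups of Enpp6 lay apart with little spread, yet it passed correction in DESeq2 and not in edgeR.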

Other observations

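Iron handling genes, which serve the same metal as transferrin, were mixed. Of 12, 5 had positive and 7 negative log2 fold changes (median −0.13), none passed in edgeR or in the authors' deposited table, and 0 had an unadjusted p under 0.05. Tfrc, the transferrin receptor, was the 1 gene of the list whose groups did not overlap, at 448, 552 and 559.9 CPM in the knockout libraries, against 709.7, 690.0 and 576 CPM in the wildtype libraries (log2 fold change −0.34, SE 0.17; edgeR adjusted p = 0.9996; all knockout libraries were below all wildtype libraries for 4.93% of genes). Fth1, the ferritin heavy chain, was at 2998 ± 627 CPM in knockout and 2735 ± 616 CPM in wildtype nerve, and Ftl1, the light chain, at 562 ± 107 and 604 ± 224 CPM (SD, n = 3). The light chain was highest in wildtype replicate 3 (854 CPM), as Trf was.

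Microglia of the central part and macrophages of the nerve share most markers. Of 11 such markers 7 had negative fold changes (median −0.38), as did 51.1% of all tested genes. None of the 11 passed in edgeR or in the authors' deposited table, and 2 were lower at an unadjusted p under 0.05 (2.64% of genes). For 4 of them (Csf1r, C1qb, C1qc and Trem2, named after their values were seen) all knockout libraries lay below all wildtype libraries (4.93% of genes). Their library medians were −0.28, −0.16 and −0.36 in the knockout libraries, against 0.0028, 0.16 and −0.052 in the wildtype libraries. Bone and marrow markers stood at −0.013, 1.07 and 1.08 in the knockout libraries, against 0.078, −0.23 and 0.35 in the wildtype libraries. By this median, over 6 tested genes, knockout replicates 2 and 3 were above the other libraries. The list was split, with 4 positive and 2 negative fold changes. Ibsp was at 46.4, 105 and 122 CPM in the knockout and 31.1, 23.3 and 55.7 CPM in the wildtype libraries. Col1a1 was at 137, 42.6 and 44.8 against 142, 66.8 and 79.5 CPM. The summed CPM of the list was 203, 173 and 189 against 199, 110 and 156. The haemoglobin gene Hbb-b1 had 0 counts in all 6 libraries. Whether reads could be assigned to that symbol in the authors' annotation was not tested, so its 0 says nothing of blood in the pieces. The marrow gene Mpo, named after its values were seen, had 37, 600 and 320 counts against 70, 125 and 152.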
